A study of Mus musculus with 36 samples.

Results

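The genes of the cytosolic ribosomal proteins were taken from the liver transcriptomes of wild-type mice and of mice carrying a truncating Pik3r1 allele. They were chosen by name: symbols that begin with Rpl or Rps followed by a number, together with Rplp0, Rplp1, Rplp2 and Rpsa, and without rows named as pseudogenes. This gave 86 of the 38283 genes in the deposited count table, 34 named for the small (40S) subunit and 52 for the large (60S) subunit. Of these, 82 had enough counts to be tested, 33 small and 49 large, and the 4 that did not were Rpl3l, Rpl10l, Rpl39l and Rps12l1.

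All 36 mice were C57Bl/6J males aged 16 weeks on chow. Wild-type (WT) mice were compared with WT/Y657* mice, which are heterozygous in every tissue for a Pik3r1 knock-in allele that ends the p85α regulatory subunit of phosphoinositide 3-kinase early, the lesion of SHORT syndrome, in which insulin resistance is severe. Each genotype had 6 fed mice with free access to food, 6 mice fasted for 16 h and 6 mice refed for 6 h after a fast of 16 h, with 1 liver library a mouse. Gene counts do not tell the Y657* allele from the normal one, so they did not check the genotype labels.

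Each cytosolic ribosome holds 1 copy of most ribosomal proteins, so cells make them in near-equal numbers and their mRNAs are among the most abundant and shortest of the cell. Most of these mRNAs begin with a cytosine followed by a run of pyrimidines, the 5′ terminal oligopyrimidine (TOP) motif. When insulin and amino acids activate mTORC1, a kinase complex downstream of phosphoinositide 3-kinase, TOP mRNAs are released from LARP1 and translated. When nutrients are scarce LARP1 binds and stabilises them, so that their mRNA level and their translation need not move together. Liver takes ribosomes apart on fasting and rebuilds them on refeeding, and only mRNA was measured here.

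The start sites of 10 members are shown because they span the range of the genotype differences described below, from the largest to those near 0. Each line holds the 15 bases before and the 15 bases from the RefSeq start (GRCm38.p6) on the transcribed strand, and capitals mark the longest run of at least 5 pyrimidines that opens with C. RefSeq gives 2 starts for Rps21, of which the one with a run is shown.
Rpl41, chr10:128549154-128549183, minus strand: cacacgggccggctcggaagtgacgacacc
Rpl9, chr5:65391417-65391446, minus strand: acgcagggccctgacggattacaagaacgt
Rps21, chr2:180257364-180257393, plus strand: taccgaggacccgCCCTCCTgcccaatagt
Rpl12, chr2:32961697-32961726, plus strand: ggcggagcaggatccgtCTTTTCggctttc
Rps27, chr3:90213634-90213663, minus strand: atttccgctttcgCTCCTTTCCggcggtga
Rps6, chr4:86857353-86857382, minus strand: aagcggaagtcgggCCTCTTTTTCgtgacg
Rps2, chr17:24720048-24720077, plus strand: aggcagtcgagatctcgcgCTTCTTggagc
Rpl28, chr7:4792950-4792979, plus strand: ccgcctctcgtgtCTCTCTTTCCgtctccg
Rpl4, chr9:64173372-64173401, plus strand: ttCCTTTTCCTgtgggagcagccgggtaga
Rpl7l1, chr17:46782642-46782671, minus strand: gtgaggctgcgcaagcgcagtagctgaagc

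A start sequence was found for 63 of the 86 genes, and 42 of them (66.7%) held such a run on the transcribed strand in this window, against 40.3% of 27025 RefSeq genes. In the 300 bases around the start, CGGAAG (either strand), the core of sites for ETS factors such as GABP, was present in 42 of the 63 (66.7%) against 18.8% of all genes. The YY1-type AAGATGG (either strand) was present in 10 (15.9%) against 7.28%. These are matches of letters near annotated starts, which can lie away from the start used in liver. For Rpl41, Rpl12, Rps2 and others the RefSeq start lies inside the gene as GENCODE draws it.

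Library totals ran from 8839488 to 19542775 counts, with 51490 to 150255 of them on the 86 genes. The genes took 0.582 to 0.645% of counts in fasted WT livers, 0.721 to 0.752% in fed WT livers and 0.731 to 0.831% in fed WT/Y657* livers. Among fasted WT/Y657* livers 4 held 0.744 to 0.788%, and replicates 2 and 1, here called the 2 outlying mice, stood apart at 0.984% and 1.01%. The same 2 libraries had the lowest share of mitochondrial counts among fasted WT/Y657* livers, 5.49% and 6.49% against 9.02 to 12.8%, and its part in the results was not tested. The main counts of members called that rest on the fasted WT/Y657* group are therefore given with and without those mice. Shares of all genes come from the main fit with all mice, and none is set beside counts from other fits. Other values that rest on that group include those mice unless stated, among them single genes, subunit counts, separations without overlap and gene lists. The row named Rpl24 carries the identifier of Zbtb11, a neighbouring gene, in GENCODE, and the row named Rps4y2 is a transcribed pseudogene there (Rps4l). Leaving both out changed no count below by more than 2. The summed level of 8 hepatocyte markers was 62031 to 92779 CPM (counts scaled to a common library total with TMM factors) in fasted WT and 71881 to 92914 CPM in fasted WT/Y657* livers, so the labelled tissue expressed its markers.

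In fasted livers the ribosomal protein mRNAs stood higher in WT/Y657* than in WT mice almost throughout. Of 82 members, 70 were higher and 0 lower at an adjusted p under 0.05 (edgeR quasi-likelihood test, Benjamini-Hochberg over 13945 genes), whereas 6.43% of all genes tested were higher and 6.63% lower. The median log2 difference of the members was 0.41, a 1.33-fold higher level, against 0.0021 over all genes, and 81 of the 82 differences were positive. For 53 members every WT/Y657* liver lay above every WT liver, a separation seen in 2.56% of all genes. In bulk tissue, more ribosome-rich cells and more mRNA per cell cannot be told apart. Without the 2 outlying mice, 58 members were higher and 0 lower, with a median of 0.30.

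The same comparison in fed and refed livers gave no call. In fed livers 0 members were higher and 0 lower (1.21% and 1.15% of all genes), with a median log2 difference of -0.014. At an unadjusted p under 0.05 there were 3 members, against 17.4% of all genes, and DESeq2, limma-voom and the edgeR likelihood ratio test also called 0. In refed livers 0 were higher and 0 lower (0.0215% and 0.00717% of all genes), with a median of 0.036, 2 members at an unadjusted p under 0.05 (9.53% of all genes) and 0 calls by the same 3 other tests. The fed members with the smallest p were Rps4y2, Rpl7l1, Rplp0, Rpl6 and Rpl28, with log2 differences from -0.17 to 0.47. Those in refed livers included Rpl13, Rps4y2, Rps28 and Rpl11, from -0.36 to 0.18.

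**Figure D1:**
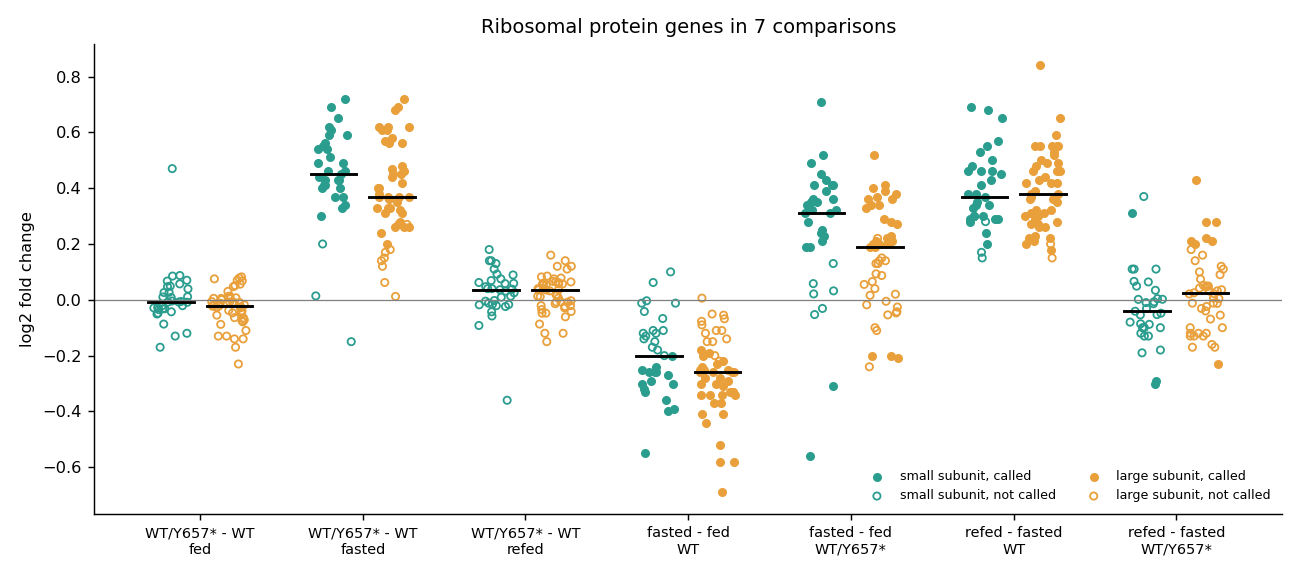
Log2 fold change (vertical axis) of the 82 tested members in 7 comparisons (horizontal axis), with small-subunit genes in green and large-subunit genes in orange. Filled points passed an adjusted p of 0.05, open points did not, and black lines are medians. Nearly all points lie above 0 for fasted WT/Y657* against fasted WT and for refeeding in WT, and below 0 for fasting in WT.

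Rpl41, the smallest ribosomal protein, had the smallest p in fasted livers. Fasted WT mice ran from 60.5 to 71.6 CPM (median 67.8) and fasted WT/Y657* mice from 92.4 to 129 CPM (median 111), without overlap. The log2 difference was 0.72 ± 0.088 (SE), adjusted p 4.5e-06. In fed mice the groups overlapped, at 80.2 to 93.1 CPM in WT and 74.5 to 95.8 CPM in WT/Y657*.

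Rps21, a protein of the small subunit, was at 57.5 to 70.6 CPM (median 61.5) in fasted WT and 82.1 to 132 CPM (median 99.4) in fasted WT/Y657* livers. The groups did not overlap, and the log2 difference was 0.69 ± 0.089 (adjusted p 6.1e-06).

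Among large-subunit members, Rpl9 was at 78.8 to 94.6 CPM in fasted WT and at 111 to 164 CPM in fasted WT/Y657* livers, a log2 difference of 0.62 ± 0.084 (adjusted p 9.2e-06). Rpl32 followed at 82.2 to 105 CPM and 115 to 172 CPM, a log2 difference of 0.58 ± 0.08 (adjusted p 9.2e-06). Neither gene's groups overlapped. Rps12 differed by as much as Rpl41, with a larger error (0.72 ± 0.12, adjusted p 1.3e-04).

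At the other end 5 members had the largest p in fasted livers. Rps2, which lines the mRNA entry channel of the 40S subunit, ran from 129 to 166 CPM (median 153) in WT and from 133 to 165 CPM (median 154) in WT/Y657*, a log2 difference of 0.014 ± 0.062. Rpl28 ran from 29.5 to 40.7 CPM and from 29.8 to 36.9 CPM, a difference of 0.012 ± 0.076. Rpl4, which lines the peptide exit tunnel, ran from 338 to 404 CPM and from 346 to 407 CPM, a difference of 0.062 ± 0.065. For these 3 genes the ranges of the genotypes nearly coincided, and the sign for Rps2 and Rpl28 changed under some alternatives. Rpl7l1, a relative of Rpl7 that acts in subunit assembly, differed by 0.12 ± 0.067 and the Rps4y2 row by -0.15 ± 0.18, both with overlapping groups. Among the start sequences above, a pyrimidine run is present both in genes with a large difference (Rps21, Rpl12) and in genes with a small one (Rpl28, Rpl4), and absent from both Rpl41 and Rpl7l1.

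**Figure D2:**
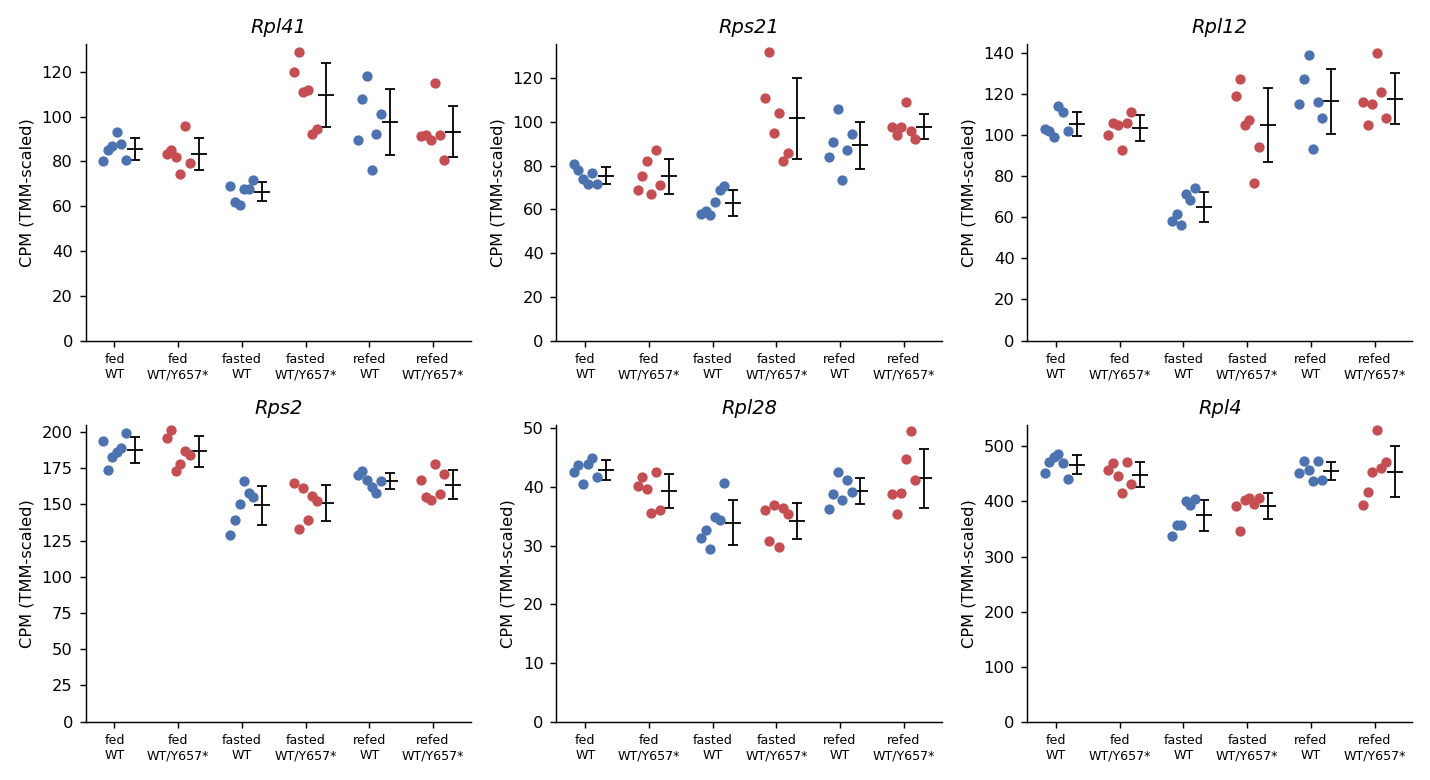
Level of 6 members in every mouse (vertical axes, TMM-scaled CPM from 0; horizontal axes, the 6 groups, WT in blue and WT/Y657* in red, 6 mice each), with bars for mean ± SD. Rpl41, Rps21 and Rpl12 separate the fasted genotypes, with fasted WT lowest, while the fasted genotypes of Rps2, Rpl28 and Rpl4 overlap.

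The genotype difference in fasted livers was of like size in both subunits. Of the small-subunit members 30 of 33 were higher (median log2 difference 0.45), and of the large-subunit members 40 of 49 (median 0.37). The mean level of each subunit's members in a mouse, on log2 CPM centred on each gene's mean, differed by 0.44 between the fasted genotypes for the small and by 0.38 for the large subunit. Small minus large was 0.0073 ± 0.031 (SD, n = 6) in fasted WT and 0.066 ± 0.055 in fasted WT/Y657* livers. This difference of 0.059 fell to 0.025 without the 2 outlying mice, which had the highest small minus large values of their group, 0.16 and 0.11. With all mice but only the members under 1 kb, the difference was 0.029. Small-subunit members were shorter, with a median exonic length of 661 against 772 bases, and the part of length was not tested.

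**Figure D3:**
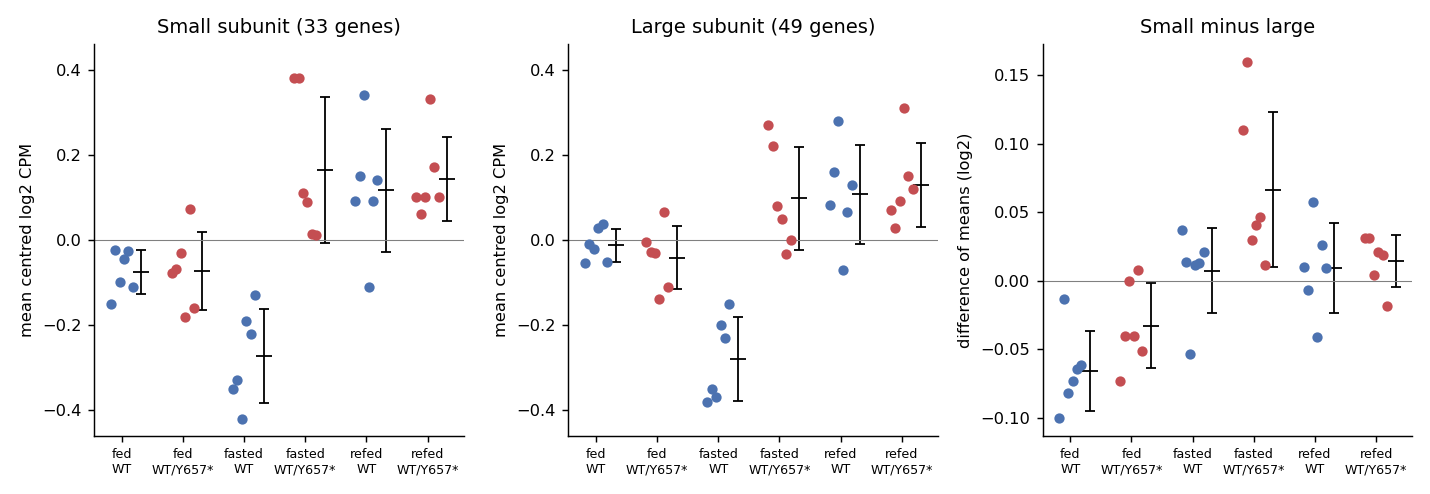
Mean centred log2 CPM of the small-subunit members, of the large-subunit members, and their difference (vertical axes, log2), for each mouse by group (WT in blue, WT/Y657* in red, bars mean ± SD). Fasted WT mice are the lowest group in both subunits, from -0.42 to -0.13 for the small and from -0.38 to -0.15 for the large, and small minus large is lowest in fed mice.

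Mouse numbers, a hint of cohort in the labels, fell into a lower and a higher series among fasted and refed mice. The sample titles also give library index pairs, whose second index largely followed feeding state. Fasted WT/Y657* replicate 1 was the only fasted library with a second index otherwise used for fed mice, and the part of library layout was not tested. Averaged over the members, fasted WT/Y657* livers stood above fasted WT livers by 0.51 on the log2 scale in the lower series and by 0.29 in the higher series (3 against 3 mice each). In the lower series 81 of 82 members were positive and in the higher series 78. Within the higher series genotype followed the mouse number, so these cannot be told apart there. Fed mice belonged to neither series. The fasting responses and the comparisons of refed with fed livers below therefore carry any difference between the series and the fed cohort.

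With all mice, the members called on fasting fell in WT livers and mostly rose in WT/Y657* livers. In WT livers 51 of 82 fell and 0 rose (17.5% and 14.5% of all genes), with a median log2 change of -0.25, and 30 fell without overlap between the fasted and fed mice (9.7% of all genes). In WT/Y657* livers 49 rose and 5 fell (15.2% and 17.7% of all genes), with a median of 0.21, and 10 rose without overlap (4.96% of all genes). Without the 2 outlying mice, 18 rose and 3 fell in WT/Y657* livers, with a median of 0.12. The size of that rise and the number called thus depended on those mice. In mean centred log2 CPM over the members, the other fasted WT/Y657* mice were at 0.092, 0.065, 0.0052 and -0.014. Fed WT/Y657* mice ran from -0.16 to 0.068, so most of those other mice lay within the fed range. The test of the difference between the responses gave 57 members with a more positive response in WT/Y657* and 0 with a more negative one (2.59% and 1.76% of all genes), and 24 and 0 without the 2 mice. The fed and fasted mice of one genotype are not those of the other, but this test and the genotype comparison share the fasted mice.

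Of the 82 members, 64 were negative in WT and positive in WT/Y657* on fasting, 15 negative in both, 2 positive in both and 1 the reverse. There were 23 members (28%) called lower in WT and also called higher in WT/Y657*, against 31 of the 13863 other genes tested (0.224%). These counts include the 2 outlying mice, without which 18 members rose in WT/Y657* livers.

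**Figure D4:**
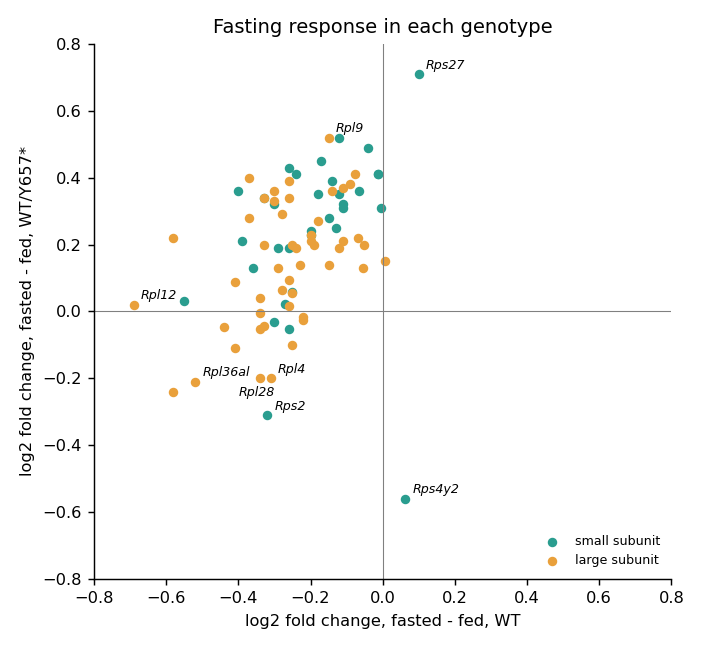
Log2 fold change on fasting in WT livers (horizontal axis) against that in WT/Y657* livers (vertical axis), 1 point a member, small subunit in green and large in orange. Most points (64 of 82) lie at the upper left, and Rps2, Rpl28, Rpl4 and Rpl36al lie in the lower left, where both genotypes fell.

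In WT livers the smallest p on fasting was that of Rpl36al, a relative of Rpl36a, which went from 42.9 to 53.3 CPM fed (median 47) to 32.3 to 34.4 CPM fasted (median 32.8), a log2 change of -0.52 ± 0.065 (adjusted p 6.8e-08). Rpl12, at the base of the ribosomal stalk, went from 99.1 to 114 CPM fed to 56 to 74.3 CPM fasted, a change of -0.69 ± 0.094 (adjusted p 2.8e-07). Rplp0, the scaffold of the stalk, went from 219 to 244 CPM to 155 to 182 CPM, a change of -0.41 ± 0.064 (adjusted p 3.2e-06). None of the 3 overlapped between fed and fasted WT mice. In WT/Y657* mice Rpl12 was at 92.6 to 111 CPM fed and 76.5 to 127 CPM fasted, a change of 0.02 ± 0.093 that did not pass the test.

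In WT/Y657* livers the smallest p belonged to Rpl9, which went from 85.5 to 104 CPM fed to 111 to 164 CPM fasted, a log2 change of 0.52 ± 0.084 (adjusted p 7.1e-06). Rps27, a zinc-finger protein of the small subunit, went from 23.7 to 37 CPM to 38.6 to 59.2 CPM, a change of 0.71 ± 0.12 (adjusted p 1.2e-05). Rps27a, made as a fusion with ubiquitin, went from 45.6 to 61.3 CPM to 61.7 to 87.6 CPM, a change of 0.52 ± 0.094 (adjusted p 4.4e-05). Each lay above its fed range in all 6 fasted WT/Y657* mice. The WT changes were -0.15 ± 0.084, 0.1 ± 0.12 and -0.12 ± 0.095, and none passed.

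The 5 members that fell on fasting in WT/Y657* livers were Rpl28 (-0.20 ± 0.075), Rpl4 (-0.20 ± 0.065), Rps2 (-0.31 ± 0.062), Rpl36al (-0.21 ± 0.065) and the Rps4y2 row (-0.56 ± 0.18). The first 4 also fell in WT, by 0.34, 0.31, 0.32 and 0.52 on the log2 scale. Rps2 fell by nearly the same amount in both genotypes, and its difference between the responses was 0.018 ± 0.087. By smallest p, the responses that differed between genotypes included those of Rpl41 (0.76 ± 0.12, adjusted p 5.8e-04) and Rpl9 (0.67 ± 0.12, adjusted p 0.00137).

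On refeeding, the members rose in WT livers and few moved in WT/Y657* livers. In WT 77 of 82 rose and 0 fell (16.5% and 13.7% of all genes), with a median log2 change of 0.38, and 47 rose without overlap (9.14% of all genes). In WT/Y657* 8 rose and 3 fell (17.1% and 14.2% of all genes), with a median of -0.0027. Without the 2 outlying mice 11 rose and 0 fell, with a median of 0.1. With library totals alone as the scale, 17 rose and 0 fell, with a median of 0.089, while the median of all genes shifted by 0.10. The response was more negative in WT/Y657* for 39 members and more positive for 0 (1.46% and 0.595% of all genes), and for 8 and 0 without the 2 outlying mice. This test again used the fasted mice of the genotype comparison. Within the lower and higher mouse series the mean change of the members was 0.55 and 0.23 in WT, and 0.049 and -0.03 in WT/Y657*.

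Rpl12 had the smallest p on refeeding in WT, from 56 to 74.3 CPM fasted to 93 to 139 CPM refed, a log2 change of 0.84 ± 0.094 (adjusted p 1.3e-08). Rps26, which sits at the mRNA exit of the 40S subunit, went from 46.2 to 55.9 CPM to 62.1 to 78.4 CPM, a change of 0.53 ± 0.069 (adjusted p 2e-07). Refed and fasted WT mice did not overlap for either gene. Rps26 also rose in WT/Y657* livers, from 54 to 68.9 CPM to 70.5 to 89.7 CPM, a change of 0.31 ± 0.069 (adjusted p 5.7e-04), the smallest p of that comparison.

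The other WT/Y657* rises with the smallest p were Rpl7l1 (0.28 ± 0.066, adjusted p 0.00126) and Rpl3, which reaches towards the peptidyl transferase centre (0.43 ± 0.10, adjusted p 0.00152). Against them Rps24 (-0.29 ± 0.094), Rps27l (-0.30 ± 0.093) and Rpl41 (-0.23 ± 0.087) fell. Without the 2 outlying mice none of these 3 falls passed the test. By smallest p, the genotype differences in the refeeding response were led by Rpl41 (-0.78 ± 0.12, adjusted p 0.00144), Rpl17 (-0.73 ± 0.13, adjusted p 0.00252) and Rpl35a (-0.61 ± 0.11, adjusted p 0.0034).

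Refed livers ended above fed livers for part of the members. In WT 30 were higher and 1 lower (13.2% and 14.3% of all genes), with a median of 0.15, and in WT/Y657* 39 were higher and 1 lower (13% and 13.1% of all genes), with a median of 0.20. Rps2 was the member that was lower in both, by 0.17 and 0.19 on the log2 scale. The WT count was 20 without refed WT replicate 3, whose mean over the members was the highest of its group, at 0.30. With the length trend removed 6 were higher and 6 lower in WT (median 0.0044), and 17 higher and 2 lower in WT/Y657* (median 0.11).

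On average the small-subunit members stood slightly higher relative to the large-subunit members in fasted than in fed livers. This was not tested, and the fed mice belonged to neither number series. Small minus large rose from -0.065 ± 0.029 (SD, n = 6) in fed to 0.0073 ± 0.031 in fasted WT livers, and from -0.032 ± 0.031 to 0.066 ± 0.055 in WT/Y657* livers, differences of 0.072 and 0.10. On refeeding the differences were 0.0021 in WT and -0.051 in WT/Y657*. Without the 2 outlying mice the WT/Y657* differences were 0.065 on fasting and -0.018 on refeeding. With all mice but only the members under 1 kb, the fasting differences were 0.084 in WT and 0.087 in WT/Y657*. The refeeding differences were then -0.0066 and -0.023. By members, 16 of 33 small and 35 of 49 large fell on fasting in WT (medians -0.20 and -0.26), and 25 of 33 small and 24 of 49 large rose in WT/Y657* (medians 0.31 and 0.19). No test was made of the subunits against each other, since their members share the mice.

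Members with known roles outside or beside the ribosome followed the pattern to differing extents. Rpsa, also known as the laminin receptor, was at 69.2 to 103 CPM in fasted WT and 101 to 130 CPM in fasted WT/Y657* livers, overlapping at their edges, a log2 difference of 0.45 ± 0.085 (adjusted p 5.1e-04). It fell on fasting in WT by 0.55 ± 0.085 and changed by 0.032 ± 0.084 in WT/Y657*, which did not pass. Rps6, the substrate of S6 kinase, was at 48.3 to 59.4 CPM and 62.2 to 87.7 CPM in the fasted genotypes, without overlap, a difference of 0.43 ± 0.085 (adjusted p 7.3e-04). Its fasting change was -0.12 ± 0.086 in WT, which did not pass, and 0.35 ± 0.085 in WT/Y657* (adjusted p 0.00139).

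Rplp0, Rplp1 and Rplp2 form the stalk that recruits elongation factors. They were higher in fasted WT/Y657* than in fasted WT livers by 0.37, 0.35 and 0.37 on the log2 scale, and fell on fasting in WT by 0.41, 0.41 and 0.34. None of the 3 passed the test on fasting in WT/Y657*, with log2 changes of 0.087, -0.11 and 0.04. Rpl5 and Rpl11, which bind 5S rRNA and, when free, the p53 inhibitor Mdm2, were higher by 0.40 ± 0.078 and 0.36 ± 0.066. Rps19, the gene most often mutated in Diamond-Blackfan anaemia, was higher by 0.51 ± 0.093, and Rpl10, which joins the 60S subunit late, by 0.38 ± 0.077. The fasted genotypes overlapped for Rplp2, Rpl11 and Rpl10 and were apart for Rplp0, Rplp1, Rpl5 and Rps19.

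Of the pairs of close relatives, 4 had a relative that was tested. Rps27l, at 217 CPM per kb of exon averaged over all mice, was above Rps27 (112 CPM per kb), and both were higher in fasted WT/Y657* livers, by 0.59 ± 0.094 and 0.43 ± 0.12. Rpl22l1 (14.8 CPM per kb) was far below Rpl22 (169 CPM per kb). Its log2 difference was 0.57 ± 0.16 (adjusted p 0.0164), while that of Rpl22 was 0.15 ± 0.062 (adjusted p 0.0937). Rpl36al (83 CPM per kb) and Rpl36a (106 CPM per kb) were both higher by 0.31. Rpl7l1 (52 CPM per kb) did not pass, and Rpl7 (159 CPM per kb) was higher by 0.24 ± 0.065 (adjusted p 0.0125). Reads of such relatives could be assigned to either. The untested Rpl3l, Rpl39l and Rps12l1 had at most 5, 3 and 3 counts in any library, and Rpl10l had 0 in all 36.

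Per kb of exon the most abundant members were Rplp1 (348 CPM per kb), Rps9 (300), Rpl8 (282), Rpl4 (281) and Rpl13a (256). The least abundant were Rps4y2 (12.4), Rpl22l1 (14.8), Rpl24 (20.2, a length that belongs to Zbtb11), Rpl35 (27.4) and Rpl29 (28.8). Across the 36 mice the median Pearson correlation of a member with the mean of the others was 0.87, and 63 of 82 reached 0.8. The lowest were Rps2 (0.112), Rps4y2 (0.205), Rpl28 (0.393), Rpl4 (0.439) and Rpl7l1 (0.514), which are also the 5 with the largest p in fasted livers, and these values rest on the same mice and differ in depth. Rps2 and Rpl4 are abundant members, at 1291 and 3067 counts or more in every library.

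Members are short, with a median exonic length of 740 bases against 2688 bases for all genes tested, and short genes of other kinds also stood higher in fasted WT/Y657* livers. The median log2 difference of the other genes was 0.39 up to 0.5 kb (297 genes), 0.14 from 0.5 to 1 kb, 0.028 from 1 to 2 kb, -0.022 from 2 to 4 kb and -0.037 above. Members had medians of 0.43, 0.40 and 0.41 in the first 3 classes (19, 44 and 16 members). Below 0.5 kb the members thus lay close to other genes, and from 0.5 to 2 kb above them. In the same 3 classes, the genotype difference in the refeeding response had member medians of -0.39, -0.38 and -0.36. Other genes had -0.46, -0.12 and 0.0097. For refed against fed in WT the medians were 0.19, 0.17 and 0.079 for members, and 0.048, 0.18 and 0.13 for other genes. With a per-library length trend removed, 50 members were higher and 0 lower in fasted WT/Y657* livers (median 0.26), 50 fell on fasting in WT, and 30 rose and 8 fell on fasting in WT/Y657*. For refeeding in WT 51 then rose, and the genotype difference in the refeeding response was called for 8. The share of all genes called in the corrected fit is not given here. These counts therefore cannot show how far the members stood apart from other genes in it. The part of length in these results was not tested further.

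**Figure D5:**
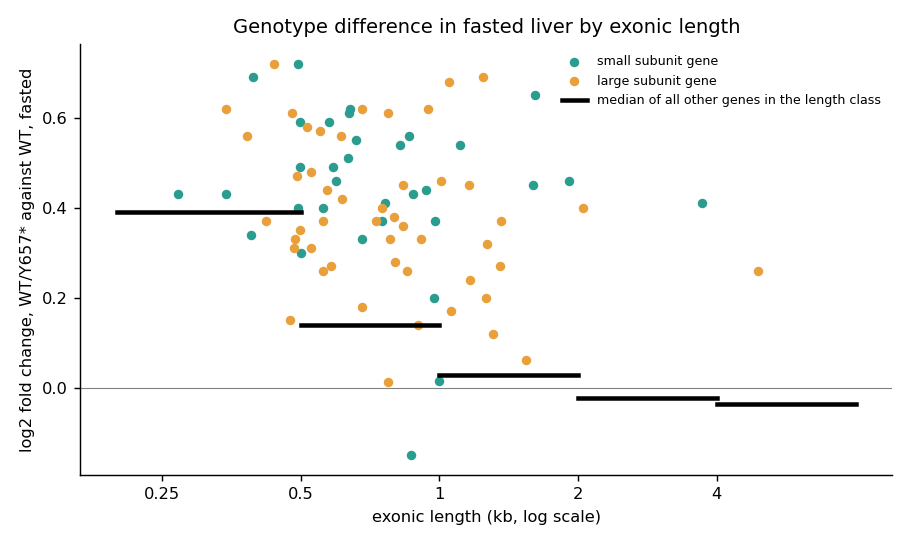
Log2 fold change of WT/Y657* against WT in fasted livers (vertical axis) by exonic length (horizontal axis, kb, log scale) for small-subunit (green) and large-subunit (orange) members. Black bars give the median of all other genes in each length class, 0.39 in the shortest and -0.037 in the longest, and the longest point is the row named Rpl24, whose length is that of Zbtb11.

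Other parts of the translation machinery were compared by count. Fau, which encodes a ribosomal protein fused to a ubiquitin-like protein, and Gnb2l1 (Rack1), a 40S scaffold, fall outside the name rule and were higher in fasted WT/Y657* livers, by 0.31 ± 0.09 and 0.47 ± 0.072. Of 18 other TOP mRNAs, mostly elongation and initiation factors, 7 were higher and 1 lower (median 0.12), against 6.43% and 6.63% of all genes. Eef1b2, a nucleotide exchange factor of elongation (0.48 ± 0.083, adjusted p 1.7e-04), and Tpt1 (0.37 ± 0.071, adjusted p 6.6e-04) had the smallest p, while Eef1a1 was at 0.045 and Eif4b was lower by 0.34 on the log2 scale. Of 4 tested host genes of snoRNAs with TOP starts, 2 were higher, Snhg12 (0.64 ± 0.14) and Gas5 (0.29 ± 0.08), against 6.43% of all genes. On fasting 2 of the 4 rose in WT (median 0.44) and 4 in WT/Y657* livers (median 0.78), against 14.5% and 15.2% of all genes, and the genotype difference in the fasting response was called for 0, with 1 at an unadjusted p under 0.05 (edgeR quasi-likelihood test).

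The nuclear-encoded proteins of the mitochondrial ribosome, a separate machine, were higher for 12 and lower for 2 of 76 in fasted WT/Y657* livers (median 0.11). Proteasome subunits were higher for 5 and lower for 0 of 39 (median 0.10). Of all genes, 6.43% were higher and 6.63% lower in that comparison. On refeeding 53 of the 76 rose in WT and 44 in WT/Y657*, and 29 and 26 of the 39, against 16.5% and 17.1% of all genes. Among 20 regulators of ribosomal protein synthesis 0 were higher and 2 lower in fasted WT/Y657* livers, a count near the 6.63% of all genes that were lower. The 2 were Sp1 (-0.26 ± 0.081, adjusted p 0.0314, edgeR quasi-likelihood test), a transcription factor of many housekeeping promoters, and Eif4ebp2 (-0.40 ± 0.14, adjusted p 0.0471), a translational repressor that mTORC1 phosphorylates. With each mouse left out in turn, Sp1 stayed called in 30 of 36 fits and Eif4ebp2 in 19. Neither Larp1 (-0.19 ± 0.087) nor Mtor (-0.017 ± 0.083) passed. The summed levels of the marker lists of other liver cells overlapped between the fasted genotypes, or met at 2.08 CPM for neutrophils: 208 to 388 and 219 to 373 CPM for 5 Kupffer cell markers, 292 to 339 and 278 to 342 for endothelial, 328 to 395 and 360 to 521 for stellate, 25.1 to 48.7 and 20.6 to 50.4 for cholangiocyte, 1.95 to 4.3 and 1.22 to 4.31 for lymphocyte, 0.286 to 2.08 and 2.08 to 6.65 for neutrophil, 231 to 425 and 242 to 329 for erythroid and 0 to 5.08 and 0 to 0.941 for adipocyte markers. The medians were higher in WT/Y657* for 6 of these 8 lists, among them stellate markers (408 against 353 CPM) and neutrophil markers (2.39 against 1.46 CPM), and lower for cholangiocyte and adipocyte markers, and their part in the result was not tested.

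Members with and without a pyrimidine run near the RefSeq start had similar medians, which were not tested against each other. In fasted livers the median genotype difference was 0.44 over 39 members with a run and 0.40 over 21 without. On fasting in WT the medians were -0.28 and -0.20, and in WT/Y657* 0.21 and 0.23.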

How the data were processed

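Liver RNA of 36 mice was sequenced as stranded total RNA libraries. The authors deposited a table of estimated counts for 38283 genes, not normalized. The labels list Cuffdiff, SAMtools, featureCounts and edgeR without versions, speak of annotated human genes, and give mm9, whereas 99.7% of the loci found overlap the same gene in GENCODE M21 (GRCm38), from which coordinates and lengths were taken. A second table of fitted counts, in which mice of the same group differed only by a factor per library, was not used. Of counts above 0, 3.64% were not whole, and all were rounded.

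Genes were kept by filterByExpr (13945), scaled by TMM and fitted with edgeR 4.0.16 (R 4.3.3, glmQLFit, 1 coefficient per group, all mice). Contrasts were tested two-sided with glmQLFTest, with Benjamini-Hochberg adjustment across the whole table and calls at an adjusted p under 0.05. Log2 CPM used a prior count of 2. Exonic length is that of the shortest principal transcript, or the median of the basic transcripts where none is marked. Steps were tested on simulated data. The alternatives were DESeq2 1.42.0, limma-voom (limma 3.58.1), the likelihood ratio test, other scalings and filters, fewer groups, Bonferroni, mouse number series, length and GC corrections (mgcv 1.9.3), and each mouse left out. Leaving out fasted WT/Y657* replicates 1 and 2, or the rows named Rpl24 and Rps4y2, was chosen after seeing the data.

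Genotype and state came from the labels, sex and heterozygosity from the paper. Each replicate is a separate mouse, and mouse numbers come from the sample titles. Library totals had a median of 13596666 counts.

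The members and lists were chosen with earlier results of these data known. Genes were named by rule: the 5 smallest p in each genotype comparison, the 5 largest in fasted mice, the 3 smallest in each fasting and refeeding response and each difference of responses, members called against most others, close relatives, 10 members with known roles, the 5 most and least abundant per length, the 5 lowest correlations, and the 2 smallest p of each list. Some genes that the rule names are not reported here. Rps12, Eef1a1, Eif4b, Larp1 and Mtor were named after their values were seen. Start sequences are RefSeq's, and amino acid sequences were not used here.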

Additional observations from a re-analysis of the deposited data

Results flagged for a closer look

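The genotype difference in the fasting response, called for 57 members, and that in the refeeding response, called for 39, were flagged because the response to feeding state differed between the genotypes by a test of the difference itself. Both counts use the fasted mice, and without fasted WT/Y657* replicates 1 and 2 they were 24 and 8.

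Of 54 groups of 6 mice, 5 had 1 mouse whose gap to the others passed Dixon's critical value. Chance flags about 1 in 20 groups. Small minus large was -0.053 in fasted WT replicate 3, against 0.012 to 0.0369 in the others. The share of counts on the members was 0.752% in fed WT replicate 5, against 0.721 to 0.73%. In refed WT/Y657* replicate 4, Rpl41 was at 115 CPM and Rps21 at 109 CPM, against at most 91.8 and 97.9 CPM. Rpl4 was at 346 CPM in fasted WT/Y657* replicate 2, against 392 to 407 CPM, although that mouse was among the highest in the mean of the members.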

How the results depend on the processing

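Counts of members called stayed on the same side of the threshold and within 1.5 times in 541 of the 572 comparisons of a count with an alternative, and the genotype difference in fasted livers, with 70 called, did so except under Bonferroni (38). Bonferroni also left 7 on fasting in WT, 3 on fasting in WT/Y657*, 29 on refeeding in WT, 0 on refeeding in WT/Y657*, 0 and 0 for refed against fed in WT and WT/Y657*, and 5 and 3 for the genotype differences in the fasting and refeeding responses. Without fasted WT/Y657* replicates 1 and 2, the counts were 21 on fasting in WT/Y657*, and 24 and 8 for the genotype differences. With the length trend removed they were 51 on refeeding in WT, 12 (6 higher, 6 lower) and 19 for refed against fed, and 36 and 8 for the genotype differences, and with length and GC removed 51, 13, 18 and, for refeeding, 12. With library totals alone as the scale they were 17 on refeeding in WT/Y657* and 36 for the fasting difference. With only the compared groups fitted, 6 were called on refeeding in WT/Y657*. Without a filter they were 20 for refed against fed in WT and 25 for the refeeding difference. Leaving out fasted WT/Y657* replicates 1 and 2 moved medians too. On fasting in WT/Y657* the median went from 0.21 to 0.12. For the genotype differences in the fasting and refeeding responses it went from 0.43 to 0.33 and from -0.38 to -0.27. The cause of these changes was not tested.

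Leaving out each mouse in turn gave 68 to 72 members in fasted livers by genotype, 20 to 36 for refed against fed in WT, lowest without refed WT replicate 3, and 21 to 47 for the refeeding difference, lowest without fasted WT/Y657* replicate 1. Signs turned for Rps2 between fasted genotypes (-0.085 with length, -0.049 with length and GC, -0.026 to 0.048 with each mouse left out), for Rpl28 (-0.13, -0.12, and -0.024 to 0.07) and for Gas5 (-0.0042 with length and GC). Small minus large moved by less than 1 SD between mice in 108 of 108 comparisons. That SD was close to or above the size of most of the differences, so the count cannot show that they held. Between refed genotypes the difference ran from -0.0045 to 0.015 with each mouse left out. No paired analysis was possible because replicate numbers follow accession order and name different mice.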
